A study of Mus musculus with 18 samples.

Results

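Dbp, Tef, Hlf, Nfil3, Bhlhe40, Bhlhe41, Ciart and Rora are transcription factors and corepressors that act at the output of the circadian clock. They were taken by name from the 46983 genes measured in the series, in which each had 1 entry, and all 8 passed the filter that left 12111 genes for testing. Poly(A) RNA of mouse skeletal muscle was sequenced in 18 libraries that the labels call biological replicates. Adult male mice of a C57Bl6/J background carried a floxed allele of Ppargc1b, the gene of the coactivator PGC-1beta. Animals that also carried Cre under the human skeletal actin (HSA) promoter, which is active in muscle fibers, lacked PGC-1beta in muscle (MKO), and floxed animals without Cre served as controls (WT). Mice had free access to food (fed; WT n = 4, MKO n = 5) or were killed 24 h after food had been withdrawn in the morning (fasted; WT n = 4, MKO n = 5). The titles name the muscle as quadriceps whereas the study's text names Gastrocnemius, and no source used here gives the hour at which fed mice were killed.

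The mammalian clock is a loop in which the heterodimer of CLOCK and BMAL1 (gene Arntl) binds E-boxes and drives Per and Cry genes, whose products inhibit it. DBP, TEF and HLF form the PAR family of basic leucine zipper (PAR bZIP) activators and bind D-box elements, and NFIL3 represses from the same elements. BHLHE40 and BHLHE41 compete for E-boxes, CIART inhibits CLOCK and BMAL1, and RORA activates genes with ROR elements, where the REV-ERB proteins (Nr1d1, Nr1d2) repress. In muscle these factors connect the time of day to metabolic genes, and feeding is one of the cues that set peripheral clocks.

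Levels are given in TPM (transcripts normalised to a fixed library total), which are adjusted for transcript length and do not preserve read depth. Ppargc1b itself was listed at 1.45 to 2.05 TPM in WT fed, 1.76 to 2.35 in MKO fed, 0.726 to 1.47 in WT fasted and 0.422 to 1.11 TPM in MKO fasted muscle, so these ranges did not separate the genotypes. A value over the whole gene also counts exons outside a floxed segment and is no check of the deletion. The 6 skeletal fiber markers (Acta1, Ckm, Mb, Myh4, Myh1, Myh2) summed to 22359 to 61627 TPM per library. Genes of the mitochondrial genome took 61.5% to 81.3% of TPM, with the highest value in the fourth WT fasted library, which also had the fewest genes at or above 0.5 TPM, 10729 against 11145 to 11958 in the rest. This share was lower in MKO than in WT, and the median tested gene, averaged over the libraries of a group, was 0.27 higher in MKO than in WT on the log2 scale in the fed state and 0.32 higher in the fasted state. Each change is therefore given both as deposited and after all libraries had been scaled to the same median, that is, relative to the median gene. Averaged in the same way, fasting moved the median gene by 0.00 in WT and by 0.05 in MKO. The WT average includes the fourth WT fasted library, whose median was 1.54 on the log2 scale. The other WT fasted libraries had medians of 1.93 to 2.04, above the 1.81 to 1.90 of WT fed. This low library also enters the fasted genotype difference of 0.32.

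The 250 bases before the transcription start were read for 7 of the 8 genes in RefSeq (GRCm38.p6), in which Tef has 2 starts. The E-box CACGTG, a palindrome that reads alike on both strands, was found in the windows of Tef, Bhlhe41 and Ciart and not in those of Dbp, Hlf, Nfil3 or Rora, and 7.15% of all 32851 promoter windows (250 bases before and 50 after a start) held it. The windows of these 3 genes are shown because the genes share these letters and, as described below for fasting, differed in their response. Letters in capitals are CACGTG, and stretches that lie in an exon of the gene in GENCODE M21 were left off, which removed the other Tef window whole.
Tef (chr15:81811164-81811413, plus strand): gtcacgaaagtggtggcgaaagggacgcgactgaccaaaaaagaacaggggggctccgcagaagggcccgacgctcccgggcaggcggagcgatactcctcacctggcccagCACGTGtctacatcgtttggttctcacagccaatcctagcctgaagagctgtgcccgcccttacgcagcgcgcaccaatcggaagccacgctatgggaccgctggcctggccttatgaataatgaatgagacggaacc
Bhlhe41 (chr6:145865559-145865670, minus strand): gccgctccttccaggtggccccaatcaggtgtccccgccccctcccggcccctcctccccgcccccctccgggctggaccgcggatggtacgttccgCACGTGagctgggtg
Ciart (chr3:95882252-95882478, minus strand): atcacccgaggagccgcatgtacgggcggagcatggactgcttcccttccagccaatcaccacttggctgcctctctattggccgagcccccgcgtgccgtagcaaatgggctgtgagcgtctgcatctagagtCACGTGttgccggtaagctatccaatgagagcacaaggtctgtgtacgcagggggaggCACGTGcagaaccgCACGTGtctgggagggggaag
Counted from the RefSeq start, the match lay at -138 to -133 in the Tef window shown and at -153 to -148 in Bhlhe41. The 3 matches of Ciart lay at -116 to -111, -58 to -53 and -44 to -39. The Tef window not shown also held 1 match, at -127 to -122 from its own start. The D-box TTATGTAA, which 0.938% of all windows held on either strand, occurred in none of the 7 genes. The looser form TTANNTAA, held by 6.0% of all windows, occurred once, in the Tef window not shown. The ROR half-site AGGTCA, held by 16.3% of all windows on either strand, occurred in Nfil3 alone, and TNGGTCA, held by 11.0%, overlapped it there and occurred once more in Tef. These matches describe letters in short windows and not binding.

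In fed WT muscle the levels ran from Tef (30.4 ± 3.73 TPM, mean ± SD, n = 4) and Bhlhe40 (29.0 ± 3.89) through Nfil3 (16.5 ± 6.51), Rora (12.4 ± 1.45), Bhlhe41 (11.8 ± 0.955) and Dbp (6.45 ± 5.08) to Hlf (3.16 ± 0.194) and Ciart (0.119 ± 0.101). Neighbours in this order overlapped in range, except that Ciart lay below Hlf in every library. In fasted MKO muscle Tef (43.6 ± 5.74 TPM, n = 5), Nfil3 (33.3 ± 7.08) and Rora (28.7 ± 3.82) led, followed by Bhlhe40 (12.0 ± 1.13), which was above Rora in fed WT muscle, and Bhlhe41 (4.20 ± 0.798). Dbp at 1.62 ± 0.246 TPM and Hlf at 1.41 ± 0.226 TPM overlapped near the lower end, above Ciart at 0.459 ± 0.262 TPM.

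**Figure D1:**
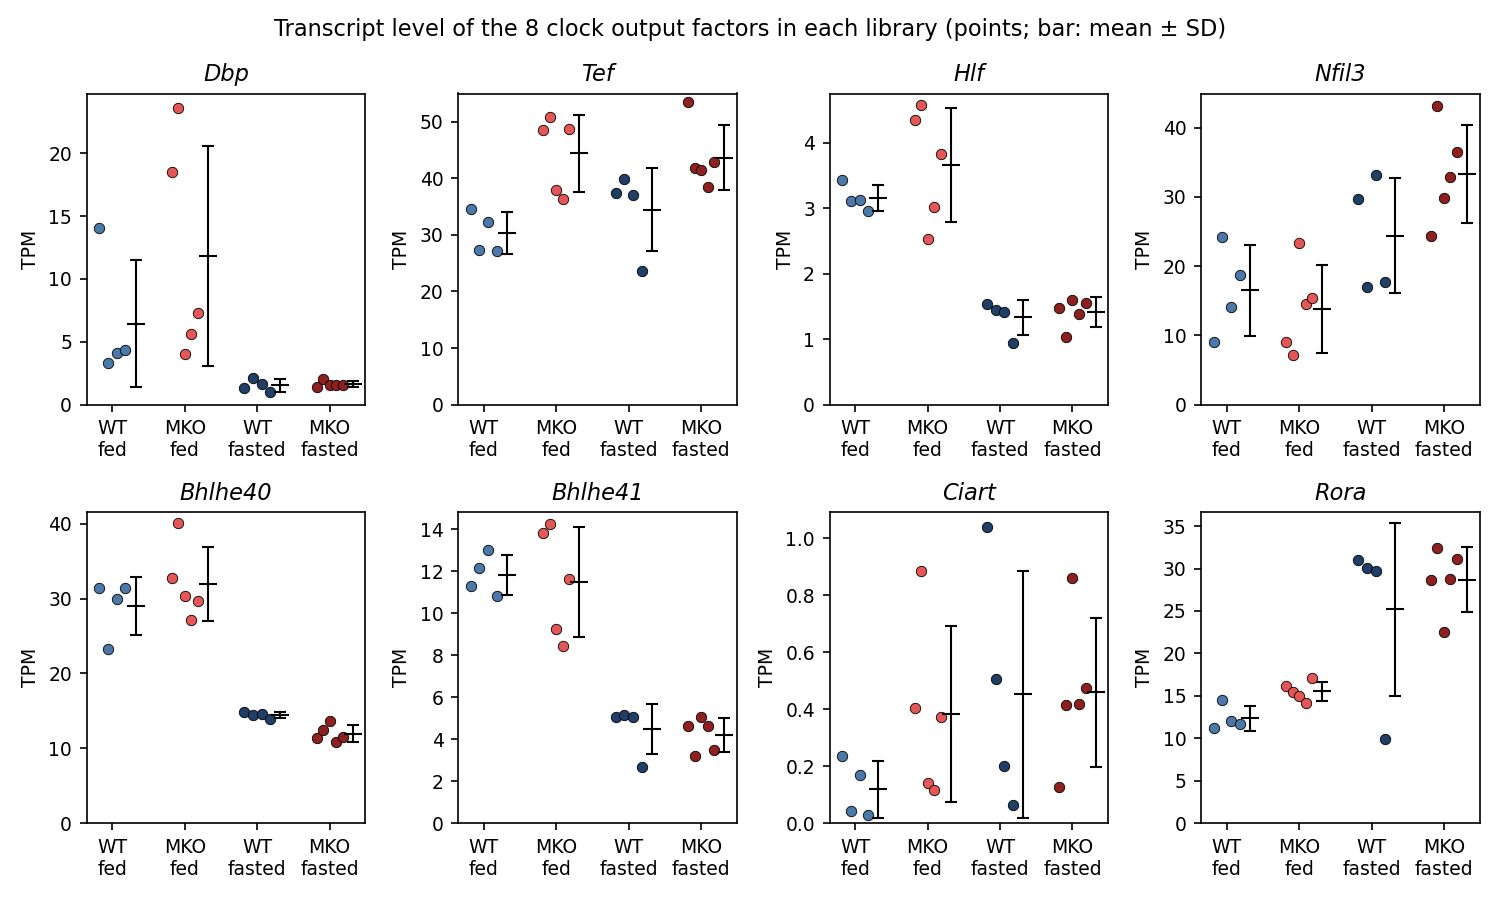
Transcript level (TPM) of each clock output factor in every library, with the group mean ± SD beside the points, for WT fed (n = 4), MKO fed (n = 5), WT fasted (n = 4) and MKO fasted (n = 5) muscle. Hlf, Bhlhe40 and Bhlhe41 separate fed from fasted libraries in both genotypes, and the fourth WT fasted library is low for Rora (9.96 TPM).

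Whether fasting altered the clock output was asked first in WT muscle. Dbp, Hlf, Bhlhe40 and Bhlhe41 fell and Rora rose, so 5 of 8 genes passed the test (limma on log2(TPM + 0.1), Benjamini-Hochberg adjusted p under 0.05), where 35.9% of all tested genes did (44.5% after scaling to the same median). By direction, 4 of 8 fell against 20.7% of all tested genes and 1 of 8 rose against 15.3%. The median change of the 8 was -0.41 on the log2 scale beside -0.06 over all tested genes. In MKO muscle the same 5 genes changed in the same directions and Nfil3 rose as well, which made 6 of 8 (33.8% of all tested genes; 42.9% after scaling), 4 down (15.8%) and 2 up (18.1%), with a median of -0.66 beside 0.01. As deposited, fed and fasted libraries did not overlap for 4 of the 8 genes in WT (26.0% of all tested genes) and for 6 in MKO (29.9%). After scaling these numbers were 4 (36.2%) and 5 (32.3%). In bulk muscle, fewer cells of a type and less RNA per cell cannot be told apart.

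Some markers of other cell types also passed the test for fasting, where 35.9% of all tested genes did in WT and 33.8% in MKO. Of 4 immune markers 0 passed as deposited in either genotype, and 1 fell in MKO after scaling. Of 4 adipocyte markers Plin1 fell in both genotypes (log2 change -1.51 in WT and -1.56 in MKO; limma adjusted p = 0.0334 and 0.0162), and the 4 summed to 45.5 to 84.5 TPM in WT fed, 12.3 to 82.8 in WT fasted, 50.5 to 141.9 in MKO fed and 17.2 to 175.6 TPM in MKO fasted libraries. Of 4 fibroblast markers Col3a1 fell in both and Col1a1 in MKO, while Pdgfra and Dcn did not pass as deposited. After scaling Dcn rose in WT (log2 change 0.33, limma adjusted p = 0.0347). The fibroblast sums overlapped between the states (371.4 to 616.0 and 478.2 to 699.1 TPM in WT, 533.5 to 796.3 and 674.0 to 859.0 TPM in MKO). The endothelial gene Kdr fell in both while Pecam1 rose in WT, with sums over 4 markers of 36.7 to 48.3 and 41.6 to 51.3 TPM in WT and of 47.7 to 61.4 and 47.2 to 59.2 TPM in MKO. For the 2 satellite cell markers the gene that fell differed, Myf5 in WT (-0.79, adjusted p = 0.00229) and Pax7 in MKO (-0.69, adjusted p = 0.00916). Their sum was 2.08 to 2.66 TPM in WT fed and 1.33 to 1.78 in WT fasted, and 2.23 to 3.08 and 1.68 to 2.79 TPM in MKO. In WT, 1 of 3 Schwann cell markers (Mbp) and 1 of 4 blood markers (Hbb-bs) rose. The part of these cell types in the changes of the output factors was not tested.

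Dbp encodes the PAR bZIP activator whose transcript is among the most strongly cycling in peripheral tissues. Its level in fed muscle was 14.0, 3.28, 4.15 and 4.32 TPM in WT and 18.5, 23.6, 3.99, 5.66 and 7.33 TPM in MKO. In fasted muscle it was 1.31, 2.15, 1.66 and 0.988 TPM in WT and 1.37, 2.03, 1.58, 1.58 and 1.55 TPM in MKO. Every fasted library lay below every fed library, and the fed libraries spanned a 7.20-fold range, the fasted ones 2.18-fold. Dbp fell 3.49-fold in WT (log2 change -1.80 ± 0.46 SE, limma adjusted p = 0.00513) and 5.56-fold in MKO (-2.48 ± 0.42, adjusted p = 0.00016), and the values relative to the median gene were -1.81 and -2.53. Its gene (ENSMUSG00000059824; GRCm38 chr7:45705088-45710203, plus strand) overlaps Sphk2 on the opposite strand, and no source used here says how strand was treated in counting. Sphk2 was at 3.30 to 6.55 TPM over all libraries, with group means of 3.94 in WT fed and 4.63 in WT fasted and of 4.48 in MKO fed and 5.50 TPM in MKO fasted muscle.

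Hlf, the second PAR bZIP gene (ENSMUSG00000003949; chr11:90336536-90390895, minus strand), was less variable. It measured 3.43, 3.12, 3.13 and 2.96 TPM in WT fed and 1.54, 1.44, 1.41 and 0.935 TPM in WT fasted muscle. The MKO values were 4.35, 4.57, 2.53, 3.01 and 3.83 TPM when fed and 1.48, 1.04, 1.60, 1.39 and 1.56 TPM when fasted. All 9 fasted libraries were below all 9 fed ones. Hlf fell 2.31-fold in WT (log2 change -1.21 ± 0.18 SE, limma adjusted p = 4.43e-05) and 2.45-fold in MKO (-1.29 ± 0.16, adjusted p = 6.52e-06).

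Tef, the third and most abundant PAR bZIP gene (ENSMUSG00000022389; chr15:81802421-81826863, plus strand), did not pass the test for fasting. It was at 34.6, 27.4, 32.3 and 27.1 TPM in WT fed and at 37.5, 39.8, 37.0 and 23.7 TPM in WT fasted libraries. In MKO muscle it was at 48.5, 50.8, 37.8, 36.3 and 48.7 TPM when fed and at 53.5, 41.9, 41.5, 38.5 and 42.9 TPM when fasted. Fed and fasted ranges overlapped in both genotypes, and the log2 changes were 0.16 in WT (95% interval -0.17 to 0.49, limma adjusted p = 0.444) and -0.02 in MKO (-0.31 to 0.27, adjusted p = 0.927). Without the fourth WT fasted library, which had the lowest Tef value, the WT change as deposited was 0.33 with an adjusted p of 0.0464 by limma. In that fit 5277 of 12111 tested genes passed for fasting in WT. Tef passed there in only 1 of 30 alternatives, and not when the other libraries were scaled to the same median.

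The makeup of the PAR bZIP transcripts differed accordingly. Tef made up 77.0% ± 7.11 of the summed Dbp, Tef and Hlf TPM in WT fed and 92.4% ± 0.507 in WT fasted muscle (n = 4 each). The corresponding shares in MKO were 75.9% ± 9.21 and 93.4% ± 0.873 (n = 5 each). In WT the shares ran from 66.5% to 81.6% when fed and from 91.7% to 92.9% when fasted, and the summed TPM of the 3 genes overlapped between the states (33.8 to 52.1 against 25.6 to 43.4).

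**Figure D2:**
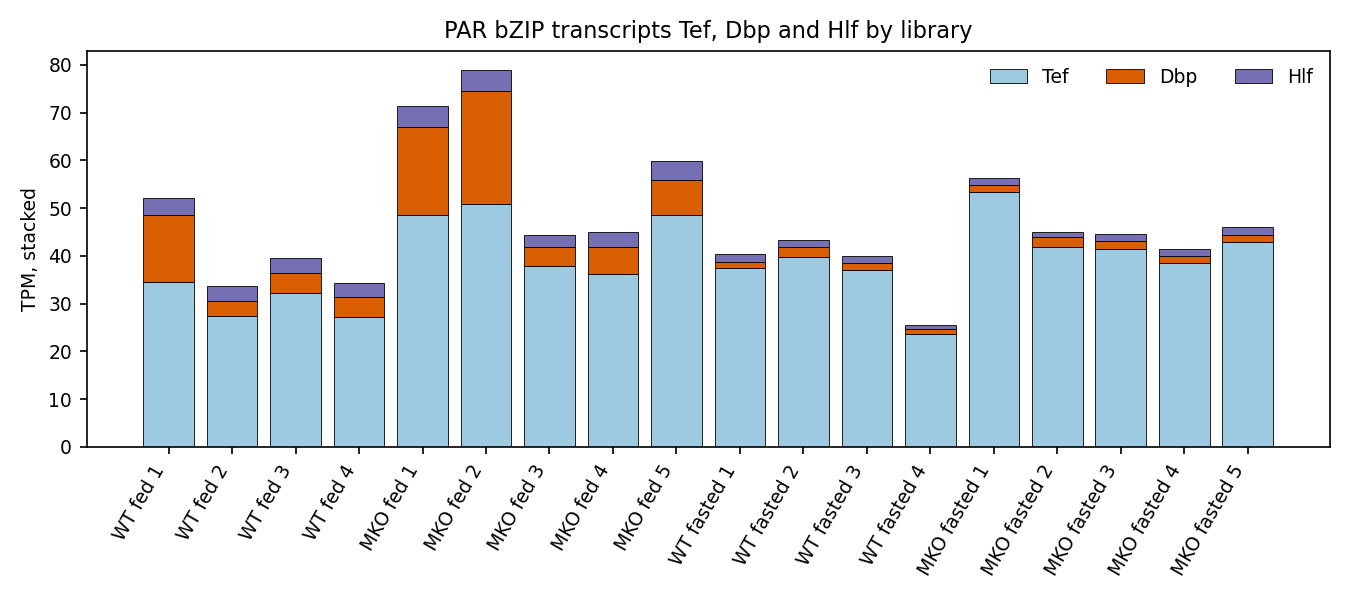
Stacked TPM of Tef, Dbp and Hlf in each of the 18 libraries. Tef forms 64.3% to 85.3% of the bar in fed and 91.7% to 94.9% in fasted libraries, and the Dbp segment is thickest in WT fed 1, MKO fed 1 and MKO fed 2.

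Nfil3, whose product represses from the D-boxes that the PAR bZIP proteins occupy (ENSMUSG00000056749; chr13:52967209-52981073, minus strand), was at 8.98, 24.2, 14.0 and 18.8 TPM in WT fed and 29.7, 17.0, 33.2 and 17.8 TPM in WT fasted muscle. In MKO muscle the values were 8.98, 7.15, 23.3, 14.6 and 15.4 TPM when fed and 24.3, 43.1, 29.8, 32.9 and 36.4 TPM when fasted. The WT ranges overlapped, whereas each MKO fasted library was above each MKO fed one as deposited, with an overlap after scaling to the same median. Nfil3 rose 2.55-fold with fasting in MKO (log2 change 1.35 ± 0.29 SE, limma adjusted p = 0.00164; 1.30 after scaling, adjusted p = 0.00156). In WT the change was 0.59 (95% interval -0.10 to 1.28, adjusted p = 0.172). The difference between the genotypes in this change was 0.76 (-0.16 to 1.69) and did not pass the test (adjusted p = 0.654 for the interaction).

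The transcripts of the activator Dbp and the repressor Nfil3 can be compared within each library as a ratio of TPM, which is not a ratio of protein. Dbp over Nfil3 was 0.136 to 1.56 in WT fed, 0.171 to 3.31 in MKO fed, 0.0440 to 0.127 in WT fasted and 0.0426 to 0.0563 in MKO fasted libraries. Thus no fasted library reached the lowest fed one. Mean log2 ratios were -1.53 ± 1.52 and -0.44 ± 1.77 in fed and -3.99 ± 0.69 and -4.35 ± 0.16 in fasted WT and MKO muscle, given here as a description of both genes together. Tef over Nfil3 overlapped between the states. Its log2 ratio was 0.18 to 1.95 in WT fed and 0.16 to 1.23 in WT fasted libraries, and 0.70 to 2.83 and -0.04 to 1.14 in MKO. Hlf over Nfil3 did not overlap (-2.96 to -1.39 and -4.55 to -3.55 in WT, -3.20 to -0.64 and -5.38 to -4.04 in MKO).

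**Figure D3:**
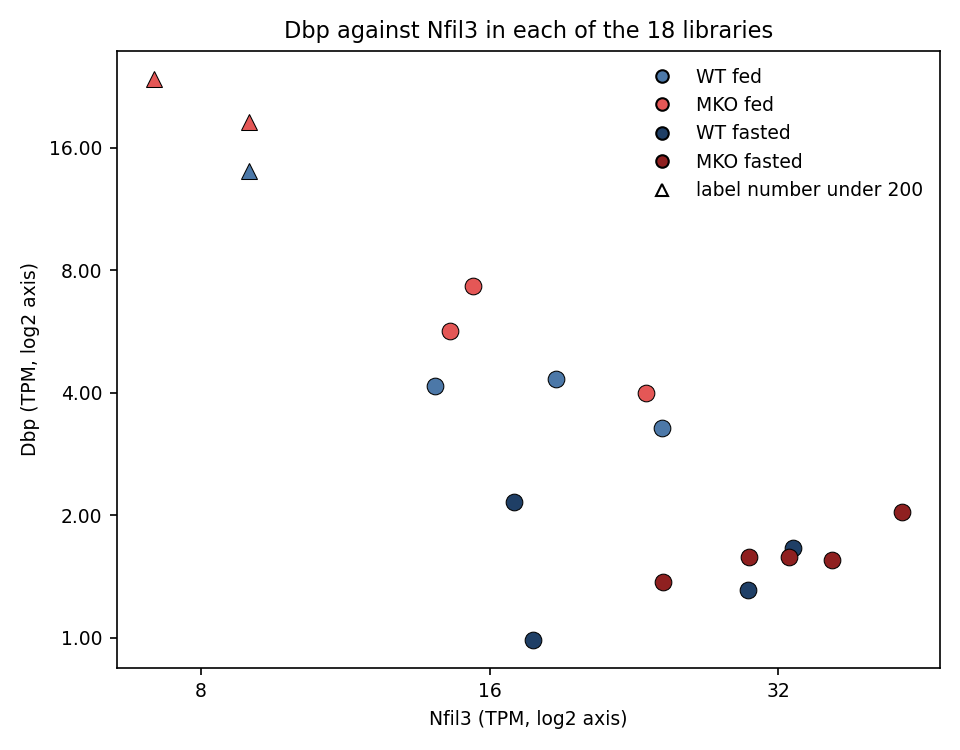
Dbp against Nfil3 (TPM, both axes log2) in the 18 libraries, coloured by group, with triangles for fed libraries whose label number is under 200. The 3 triangles combine Dbp of 14.0 to 23.6 TPM with Nfil3 of 7.15 to 8.98 TPM, and the fasted libraries lie at Dbp of 2.15 TPM or less.

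The fed libraries with high Dbp were also those with low Nfil3. Each label carries a number in parentheses, whose meaning is not given, and WT fed 1 and MKO fed 1 and 2 have numbers of 58, 130 and 132 whereas the other fed libraries have 223 to 259 and the fasted ones 395 to 425. The division at 200 was chosen after the Dbp values had been seen and is therefore described without a test. The 3 fed libraries under 200 held Dbp at 14.0 to 23.6 TPM against 3.28 to 7.33 TPM in the other 6, and Nfil3 at 7.15 to 8.98 against 14.0 to 24.2 TPM. For 2 of the 8 genes the ranges were thus apart, and for Dbp this followed from the choice of the division. Of all tested genes 2.16% (262 of 12111) were apart, a share given as a description. Among the 12 core clock genes listed, Per1, Nr1d1 and Nr1d2 were higher and Clock, Arntl, Cry1 and Rorb lower in all 3 of these libraries than in the other 6. Per1, an E-box driven inhibitor of the loop, was at 3.61 to 9.44 TPM against 1.32 to 3.22 TPM, and Arntl at 8.34 to 11.3 against 13.9 to 18.9 TPM. The numbers do not overlap between fed and fasted mice, so any difference that they mark and fasting cannot be told apart across the whole design. Without the 3 libraries, an alternative chosen after seeing the data, the calls for fasting still numbered 5 of 8 in WT and 6 of 8 in MKO, and the changes of Dbp were -1.35 and -1.71. Of all 12111 tested genes, 3571 passed for fasting in WT and 2888 in MKO in that setting.

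Bhlhe40 and Bhlhe41 encode the DEC repressors, which bind E-boxes. Bhlhe40 (ENSMUSG00000030103; chr6:108660629-108666925, plus strand) was at 31.4, 23.2, 30.0 and 31.4 TPM in WT fed and 14.9, 14.4, 14.6 and 14.0 TPM in WT fasted libraries. In MKO it was at 32.8, 40.1, 30.3, 27.2 and 29.6 TPM when fed and 11.4, 12.4, 13.7, 10.9 and 11.5 TPM when fasted. The fasted values were the tightest of all 8 genes, with a 1.37-fold range over 9 libraries, and none reached a fed value. Bhlhe40 fell 1.98-fold in WT (log2 change -0.99 ± 0.12 SE, limma adjusted p = 4.24e-06) and 2.64-fold in MKO (-1.40 ± 0.11, adjusted p = 1.18e-08).

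Bhlhe41 (ENSMUSG00000030256; chr6:145858243-145865558, minus strand) measured 11.3, 12.2, 13.0 and 10.8 TPM in WT fed and 5.08, 5.14, 5.05 and 2.70 TPM in WT fasted muscle. The MKO libraries gave 13.8, 14.3, 9.24, 8.45 and 11.6 TPM when fed and 4.63, 3.21, 5.04, 4.62 and 3.49 TPM when fasted. Again no fasted library reached a fed one. The fall was 2.68-fold in each genotype (log2 change -1.42 ± 0.20 SE in WT, limma adjusted p = 2.59e-05, and -1.42 ± 0.18 in MKO, adjusted p = 8.05e-06). The ratio of Bhlhe40 to Bhlhe41 TPM was 1.91 to 2.89 in WT fed, 2.37 to 3.28 in MKO fed, 2.80 to 5.18 in WT fasted and 2.35 to 3.87 in MKO fasted libraries, which overlapped between the states.

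Rora, the activator at ROR elements (ENSMUSG00000032238; chr9:68653786-69388246, plus strand), moved in the opposite direction. It was at 11.2, 14.5, 12.0 and 11.7 TPM in WT fed and at 31.0, 30.1, 29.8 and 9.96 TPM in WT fasted muscle. In MKO muscle it was at 16.2, 15.5, 15.0, 14.1 and 17.1 TPM when fed and 28.7, 32.5, 22.5, 28.8 and 31.1 TPM when fasted. The fourth WT fasted library lay below every fed one, while the other 8 fasted libraries lay above all fed ones. Rora rose 1.86-fold in WT (log2 change 0.89 ± 0.25 SE, limma adjusted p = 0.00828) and 1.83-fold in MKO (0.87 ± 0.22, adjusted p = 0.00512). Without the fourth WT fasted library the WT change was 1.29 (adjusted p = 8.05e-08), and with only the 2 WT groups in the fit it had an adjusted p of 0.0524 by limma. Relative to the median gene this library (1.79 on the log2 scale) fell within the WT fed range of 1.60 to 2.06 and below the 2.92 to 2.97 of the other WT fasted libraries.

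Ciart, which encodes the CLOCK and BMAL1 inhibitor also named CHRONO (ENSMUSG00000038550; chr3:95878503-95882251, minus strand), was close to the detection filter and reached 0.5 TPM in 4 of 18 libraries. Its range was 0.0275 to 0.235 TPM in WT fed, 0.115 to 0.885 in MKO fed, 0.0633 to 1.04 in WT fasted and 0.127 to 0.861 TPM in MKO fasted muscle. It overlaps C920021L13Rik on the opposite strand, which was at 0.109 to 0.366 TPM over all libraries. Whether the counting used strand is not given in the sources used here, so it is not known if reads of the 2 genes were kept apart. Tef, Bhlhe40, Bhlhe41 and Rora also overlap a gene on the opposite strand. The genes over Tef, Bhlhe40 and Rora reached at most 0.612, 0.283 and 0 TPM in any library. All groups overlapped, and no change passed the test. The fasting changes were 1.10 in WT (95% interval -0.10 to 2.30, limma adjusted p = 0.145) and 0.29 in MKO (-0.78 to 1.36, adjusted p = 0.7), on a scale that understates the change of low genes. Without the fourth WT fasted library the WT change was 1.56 (adjusted p = 0.0351).

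**Figure D4:**
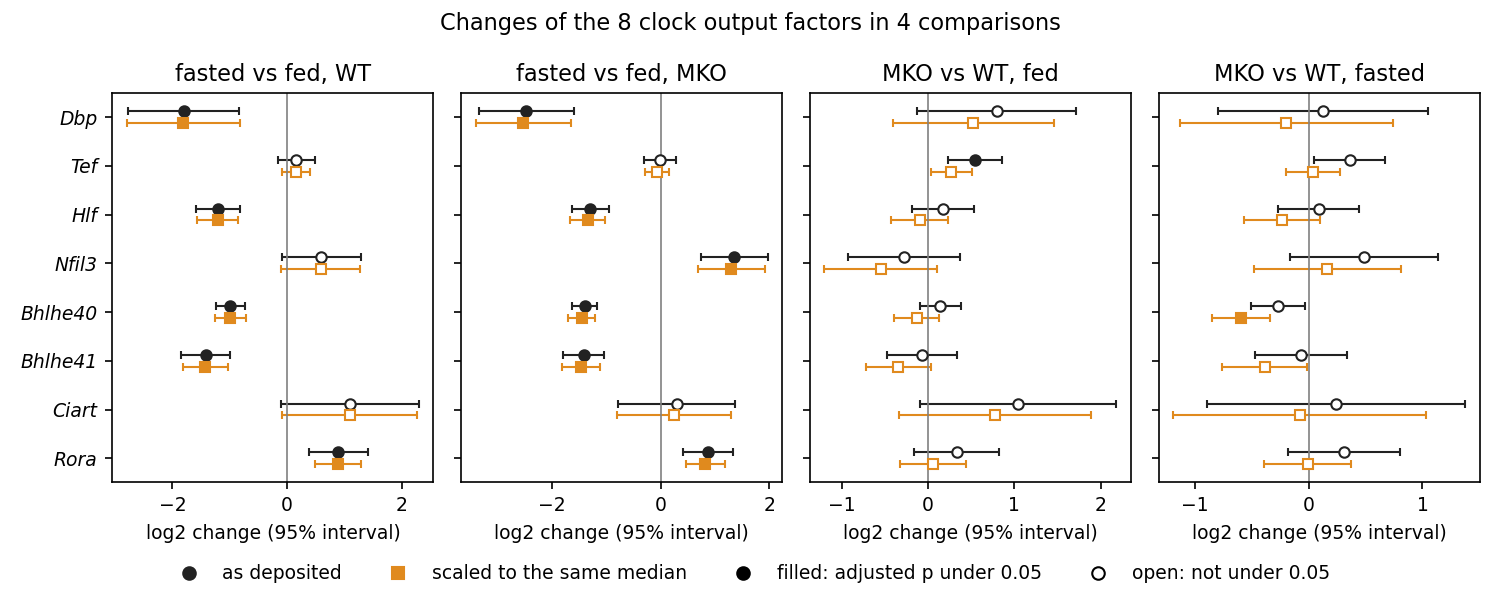
Log2 change with 95% interval (limma) of each gene for fasting in WT and in MKO and for genotype in the fed and in the fasted state, as deposited (circles) and after scaling to the same median (squares); filled symbols have an adjusted p under 0.05. Dbp, Hlf, Bhlhe40 and Bhlhe41 lie left of 0 in both fasting panels, and in the genotype panels Tef is filled only as deposited and Bhlhe40 only after scaling.

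The comparison of genotypes asked whether loss of muscle PGC-1beta altered the output genes. In the fed state Tef was the only one of the 8 to pass the test, and it was higher in MKO (1.46-fold; log2 change 0.54 ± 0.15 SE, limma adjusted p = 0.0441), where 5.05% of all tested genes passed. Each of the 5 MKO fed libraries was above each WT fed one for Tef as deposited, which held for 26.8% of all tested genes. Relative to the median gene the ranges overlapped and the change was 0.27 (adjusted p = 0.324), and 0 of 8 genes passed (1 at an unadjusted p under 0.05; 1.10% of all tested genes passed). The mitochondrial share of TPM was 74.3% to 75.0% in WT fed and 67.3% to 70.4% in MKO fed libraries, and the 6 fiber markers summed to 34687 to 36832 and 39103 to 44191 TPM. The 4 endothelial markers summed to 36.7 to 48.3 and 47.7 to 61.4 TPM. Their part in the Tef difference was not tested. The Tef call as deposited was lost when any of WT fed 2, 3 or 4, MKO fed 1 to 5 or MKO fasted 3 or 5 was left out (limma adjusted p from 0.0532 to 0.124), and Rora joined it without WT fasted 4 (log2 change 0.33, adjusted p = 0.0204). Without WT fasted 4, 4046 of 12111 tested genes passed, against 612 with all libraries. Dbp had the change 0.80 (95% interval -0.13 to 1.72, adjusted p = 0.184), with the high values in both groups described above.

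In fasted muscle 0 of 8 genes passed as deposited (2, Tef and Bhlhe40, at an unadjusted p under 0.05), although 39.4% of all tested genes did (38.9% higher in MKO). Bhlhe40 was lower in each of the 5 MKO fasted libraries (10.9 to 13.7 TPM) than in each of the 4 WT fasted ones (14.0 to 14.9 TPM), and 0.264% of all tested genes were apart in this direction. Its log2 change was -0.28 ± 0.11 SE (limma adjusted p = 0.0594), which passed when WT fed 2, MKO fed 2 or MKO fasted 3 was left out (adjusted p from 0.0386 to 0.0425). After scaling to the same median the change was -0.60 ± 0.12 (adjusted p = 0.00957), and Bhlhe40 was then the only one of the 8 to pass, where 5.19% of all tested genes passed and 2.54% were lower. On that scale it lay 1.87, 1.92, 1.95 and 2.28 above the median gene in the WT fasted libraries and 1.29, 1.36, 1.67, 1.37 and 1.33 above it in the MKO fasted ones, and the groups were apart, as they were in this direction for 3.6% of all tested genes. Tef, the other gene with a low unadjusted p, had a change of 0.36 as deposited (adjusted p = 0.0604) and of 0.04 after scaling, and passed as deposited without WT fasted 1 (limma adjusted p = 0.0457) or 2 (0.0397). The mitochondrial share was 70.8% to 81.3% in WT fasted and 61.5% to 67.9% in MKO fasted libraries. The 6 fiber markers summed to 22359 to 40477 TPM in WT fasted and 46453 to 61627 TPM in MKO fasted libraries, with 3 of 6 (Acta1, Ckm, Myh4) higher in MKO as deposited and 0 of 6 after scaling. The satellite cell marker Myf5 was higher in MKO as deposited (0.64, limma adjusted p = 0.00941) and did not pass after scaling (0.32, adjusted p = 0.316). Pax7, the other satellite cell marker, did not pass on either scale, and its mean was lower in MKO fasted (0.466 TPM) than in WT fasted muscle (0.611 TPM). The part of these values in the Bhlhe40 and Tef differences was not tested.

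No gene of the 8 passed the test of the interaction of genotype and fasting by limma (1, Bhlhe40, at an unadjusted p under 0.05, on both scales), and 0.033% of all tested genes passed (0.116% after scaling). The fasting change of Bhlhe40 was 0.42 lower in MKO than in WT (log2, 95% interval -0.75 to -0.08, adjusted p = 0.45). For Dbp the difference was -0.67 (-1.98 to 0.63), for Hlf -0.09 (-0.60 to 0.42), for Bhlhe41 0.00 (-0.57 to 0.57) and for Rora -0.02 (-0.72 to 0.67). The wide interval for Dbp includes a difference as large as its WT fasting change.

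The remaining clock genes give the setting of these changes. Of 12 core clock genes 2 rose and 1 fell with fasting in WT, where 15.3% and 20.7% of all tested genes did. In MKO 4 rose and 4 fell, beside 18.1% and 15.8% of all tested genes. The inhibitor gene Per1 rose by 2.50 in WT (log2, limma adjusted p = 9.21e-05) and 1.99 in MKO (0.000325) and the inhibitor gene Cry2 by 1.66 (6.14e-05) and 1.38 (0.000145). Cry1 fell in both (log2 change -0.80 in WT, adjusted p = 0.00121), and Arntl rose in MKO by 0.97 (adjusted p = 0.00191). In the genotype comparison Per2 and Per3 were higher in fed MKO as deposited (1.28 and 1.08; adjusted p = 0.0206 and 0.0378), of which Per2 passed after scaling (1.01, 0.0461).

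Of 12 further genes that clock factors are known to control, 5 rose and 2 fell with fasting in each genotype. Of all tested genes, 15.3% rose and 20.7% fell in WT, and 18.1% rose and 15.8% fell in MKO. Cdkn1a, the cell cycle inhibitor p21, rose by 2.94 in WT and 3.05 in MKO (log2, limma adjusted p = 3.32e-09 and 7.76e-10), and Por, the electron donor of cytochrome P450 enzymes, by 1.16 and 1.08 (1.72e-06 and 1.04e-06). Myod1, the myogenic regulator, fell (log2 changes -2.25 and -2.92; adjusted p = 1.19e-06 and 9.44e-09). By genotype 1 of the 12 (Pdxk) was higher in fed MKO, where 5.05% of all tested genes passed the test in either direction, and 3 (Pdxk, Cdkn1a, Wee1) in fasted MKO as deposited, where 38.9% of all tested genes were higher. After scaling 0 were higher and 2, Nampt and Klf10, were lower in fasted MKO, where 2.54% of all tested genes were lower.

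**Figure D5:**
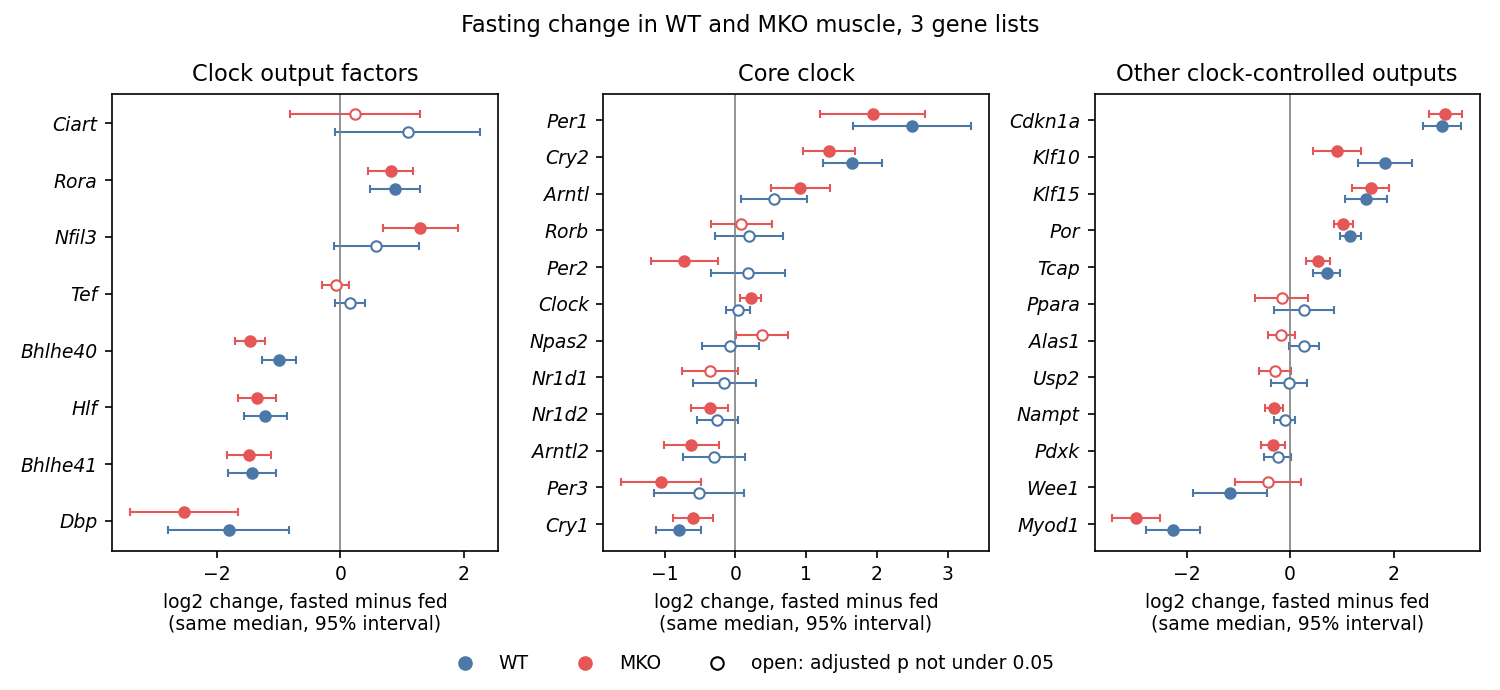
Log2 change with fasting (95% interval, limma, after scaling to the same median) in WT and MKO for the 8 output factors, 12 core clock genes and 12 other clock-controlled genes; open symbols have an adjusted p that is not under 0.05. Per1, Cry2, Cdkn1a, Klf10, Klf15, Por, Tcap and Rora are filled and right of 0 in both genotypes.

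Likeness to other genes was measured as the root mean square difference of log2 values over the 18 libraries, after scaling and centring, and is a description; nearest genes were sought outside the 8. For Nfil3 the nearest was Arntl (0.26), ahead of Rnd1 (0.41) and Ttyh1 (0.42). Rora lay nearest to Stat5b (0.12), then Usp36 and Sf1 (0.15 each). For Hlf these were Xylt1 (0.18), Pdp1 (0.21) and Trim35 (0.21), and its distance to Bhlhe41 was 0.20. Outside the 8, Bhlhe41 was closest to Cadm1 (0.24), Trim35 (0.25) and Xylt1 (0.26), and Bhlhe40 to Col24a1 (0.21), Pdp1 (0.23) and Trim35 (0.23). Tef was nearest to Mier2 (0.10), Ppox (0.11) and Arhgef1 (0.13), with an SD of its own of only 0.18. The SD of Rora was 0.50, and those of Hlf, Nfil3, Bhlhe40 and Bhlhe41 were 0.68 to 0.79. In absolute terms Dbp was farther from its nearest genes, Prkag3 (0.67), Srebf1 (0.69) and Mkl1 (0.69), with an SD of its own of 1.30. Ciart was likewise farther from Npy1r (0.68), Kcna5 (0.69) and Rps12 (0.69), with an SD of 0.86.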

How the data were processed

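Poly(A) RNA of 18 mouse muscles was sequenced as single reads by the authors, mapped to mm10 (GRCm38) and quantified with CLC Genomics Workbench. The deposited values are TPM of 46983 genes per library; the same table holds the authors' fold changes and false discovery rates for 4 comparisons, which were not used. TPM keeps no read depth. The 8 genes and the other lists were chosen with earlier results of these data known, and 1 gene of the core clock list is not reported here; the rule for named genes was the 8, up to 4 genes per list and comparison by adjusted p, and the 3 tested genes nearest to each of the 8. Core clock genes that differed among fed libraries, marker genes, the overlapping genes and further genes in a caption were named after their values were seen.

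Genes at 0.5 TPM or more in at least 4 libraries (12111) were tested after adding 0.1 to each TPM and taking log2, using limma (version 3.58.1, R 4.3.3; 4 group means, trended variance, Benjamini-Hochberg adjustment over all tested genes). The script was tested on simulated data. Alternatives changed scaling, filter, pseudocount, libraries and the replicate block. Gene positions are from GENCODE M21 (98.9% of gene identifiers matched) and promoter sequences from RefSeq GRCm38.p6. P-values measure the spread between these libraries.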

Additional observations from a re-analysis of the deposited data

Results flagged for a closer look

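Of 32 tests of a gene in a group, 4 had a highest or lowest library set far apart from the others, and chance alone marks about 1 in 20 such groups. Dbp in WT fed 1 was the highest of 4 at 14.0 TPM, against 4.32 TPM in the next library. Bhlhe40 in WT fed 2 was the lowest of 4 at 23.2 TPM, against 30.0 TPM. In WT fasted 4, the library with the largest mitochondrial share (81.3% of TPM), Bhlhe41 was lowest at 2.70 TPM against 5.05 TPM, and Rora was lowest at 9.96 TPM against 29.8 TPM.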

How the results depend on the processing

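Over 30 alternatives the fasting calls of Dbp, Hlf, Bhlhe40 and Bhlhe41 in both genotypes, and of Nfil3 and Rora in MKO, kept their direction and stayed past the threshold. No called change reversed. Leaving out 1 library at a time gave 5 to 7 genes called for fasting in WT, 6 to 6 in MKO, 0 to 2 for genotype in the fed state, 0 to 1 in the fasted state and 0 to 0 for the interaction. Over all 12111 tested genes the fasting calls then ran from 3669 to 5277 in WT and from 3413 to 5158 in MKO, and the interaction calls from 0 to 26.

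For genotype in the fed state, the count was 0 after scaling to the same median (also without WT fasted 4), quantile normalization, TPM without mitochondrial genes or no filter, and 2, Tef and Rora, with the compared groups alone. In the fit of the compared groups alone 4190 of 12111 tested genes passed, against 612 in the main fit. In fasted muscle it was 1, Bhlhe40, after scaling to the same median (also without WT fasted 4), quantile normalization or TPM without mitochondrial genes. With the 3 fed libraries of label numbers under 200 left out, chosen after seeing the data, it was 0 in the fed state on both scales and 1 in the fasted state after scaling. Same-numbered libraries deviated with correlations of -0.142 to 0.152. Such values over all genes cannot show whether mice were paired, and the study describes unpaired tests. A replicate block gave 1 call in the fasted state, Tef (0.34, limma adjusted p = 0.037), and 5 and 6 for fasting in WT and MKO. Over all 12111 tested genes the block gave 4038 calls for genotype in the fasted state, and 4280 and 4026 for fasting in WT and MKO. With looser letters, CANNTG occurred in a window of 6 of the 7 genes, of which Tef has 2 windows, and 72.3% of all windows held it. Over all genes, the calls for genotype when libraries were left out in turn ran from 47 to 4046 (fed) and 2946 to 5904 (fasted).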
